A study of Mus musculus with 4 samples.

Results

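PRC1.6 is a variant Polycomb complex that keeps germline genes silent in embryonic stem cells. Its DNA-binding subunits read E2F and E-box letters in the promoters of those genes, and its RING subunit adds ubiquitin to histone H2A. Methylation of lysine 9 of histone H3 (H3K9), laid down by Setdb1 and by the Ehmt1 and Ehmt2 pair and bound by HP1 proteins, acts on many of the same genes. The 10 genes described here encode 7 subunits of PRC1.6 (Pcgf6, L3mbtl2, Mga, E2f6, Max, Rnf2 and Cbx3) and 3 H3K9 methyltransferases (Setdb1, Ehmt1 and Ehmt2). They were taken by name, as all probe sets that the platform annotation gives to a single one of these symbols. This gave 24 probe sets for the 10 genes, out of 34958 single-symbol probe sets for 18194 genes.

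The cells were murine embryonic stem cells of the line CM7/1, labelled as overexpressing Hey1 or Hey2, which are transcriptional repressors downstream of Notch. The 4 groups were Hey1 cells given 1000 ng/ml doxycycline for 48 h (induced), Hey1 control cells (uninduced), Hey2 cells with the same doxycycline treatment (induced) and Hey2 control cells (uninduced), with 1 Affymetrix array of total RNA in each. Both induced groups had doxycycline and both uninduced groups did not, so the drug and the introduced factor cannot be told apart. Neither the labels nor the design text says whether each line is a single clone. The design names no replicate arrays. A difference between 2 arrays therefore carries no error and no p-value, and precision is limited by the number of arrays.

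Values are log2 RMA values, on which 1 unit is 2-fold. The smaller threshold used for counts, 0.32, is a ratio of signals of 5 to 4. The arrays did not show the introduced factors: the Hey1 probe set read 6.51 in induced and 6.73 in uninduced Hey1 cells, and the Hey2 probe set, dim on every array, read 4.34 in induced and 4.25 in uninduced Hey2 cells. Every direction below is therefore that of the array labelled induced. All 9 pluripotency markers lay above the median of all values (6.05) in all 4 arrays. Of 12 fibroblast markers 3, 2, 1 and 2 reached that level in the Hey1 induced, Hey1 uninduced, Hey2 induced and Hey2 uninduced arrays. Their summed linear signal was 653 in induced and 557 in uninduced Hey1 cells, and 475 in induced and 522 in uninduced Hey2 cells. Thy1, which neurons and other cells also express, was the brightest of them in the Hey1 line, at 7.80 in induced and 7.13 in uninduced cells. In the Hey2 line it read 5.73 in induced and 5.51 in uninduced cells, below Twist1 (6.12 and 6.43). Twist1 was the only one above 6.05 in every array. Col1a2 lay between 5.89 and 6.27, and Col1a1, Col3a1 and Dcn stayed below 6.05 throughout. The 3' minus 5' value, a sign of RNA quality, was 0.84 in induced and 0.95 in uninduced Hey1 cells for the Tfrc control, and 0.96 in induced and 0.67 in uninduced Hey2 cells. For Pcx it was 1.43 in induced and 1.38 in uninduced Hey1 cells, and 1.56 in induced and 1.33 in uninduced Hey2 cells. Gapdh and Actb, like Pcx, had the higher value in the induced array of both lines. The part of these measures in the results below was not tested.

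Transcripts of the 10 repressor genes differed little between induced and uninduced cells. All 10 genes lay above 6.05 in every array at their representing probe set, which is the one with the highest mean over the 4 arrays. None differed 2-fold in either line, where 0.438% of the 12098 genes compared were 2-fold higher and 0.0331% lower (Hey1 line), and 0.686% higher and 0.240% lower (Hey2 line). E2f6 was the only member at least 0.32 higher in the induced Hey1 array, and Mga the only one in the induced Hey2 array, both at the representing probe set. With the mean of all probe sets, Mga had 0.20 and Setdb1, at 0.40, was the only one in the Hey2 line. None was lower by 0.32 in either line. Of all genes compared, 6.16% were at least 0.32 higher and 3.99% lower in the Hey1 line. In Hey2 cells 9.54% were higher and 11.7% lower, so 1 of 10 is near that background. The median difference of the 10 genes was -0.07 in Hey1 cells and -0.11 in Hey2 cells, against -0.01 and -0.02 over all genes compared. The median size of their differences, sign left aside, was 0.12 and 0.15, against 0.11 and 0.15 over all genes. In bulk RNA, fewer cells with a transcript and less transcript per cell cannot be told apart.

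**Figure D1:**
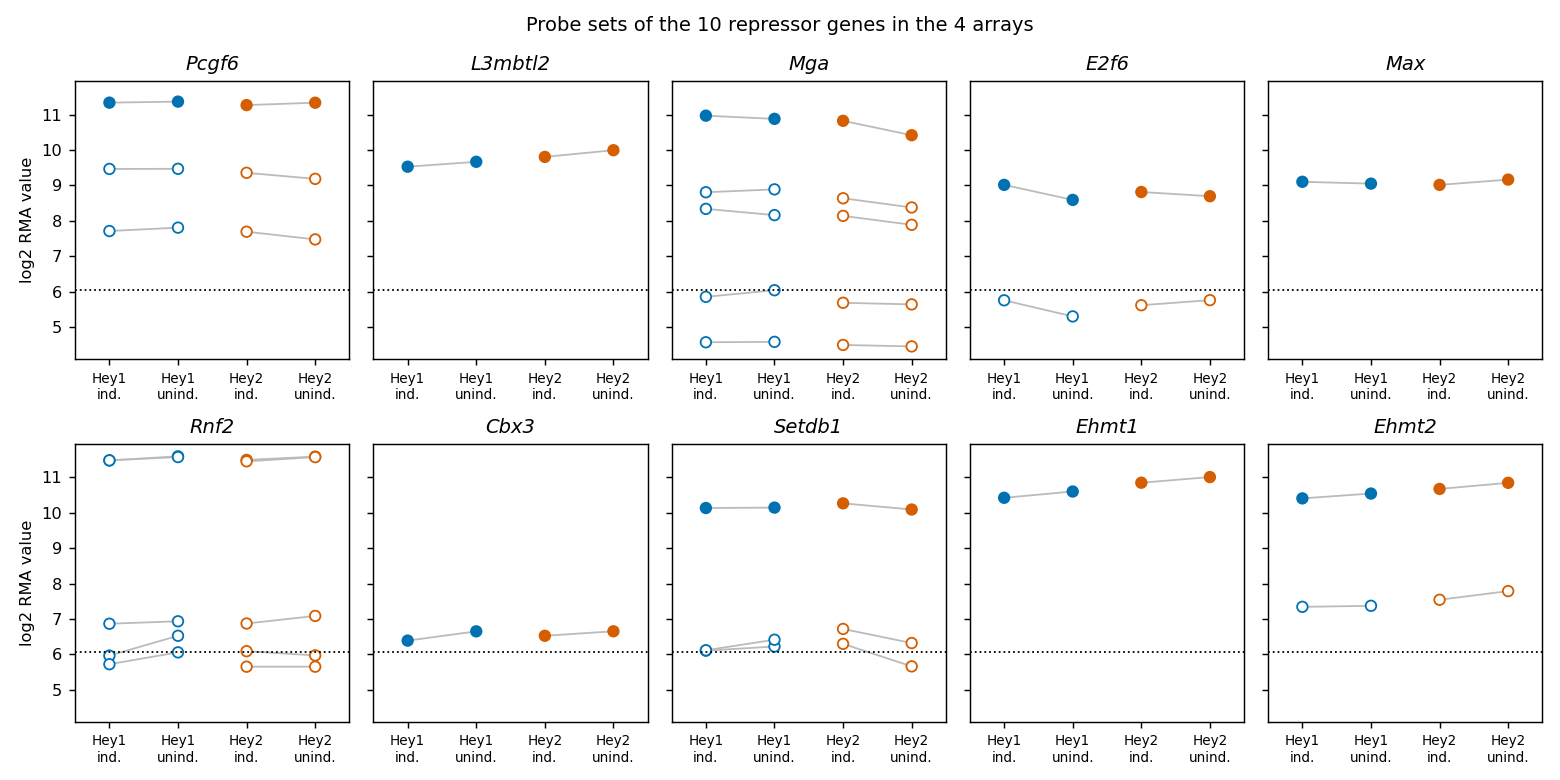
Log2 RMA value of every single-symbol probe set (circles) of the 10 repressor genes in the 4 arrays, with 1 array per group, induced left of uninduced in each line (blue, Hey1 line; orange, Hey2 line). Filled circles are the representing probe set and open circles the others, grey lines join the arrays of a line, and the dotted line is the median of all values, 6.05. The filled circles of a gene span at most 0.59.

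Among the DNA-binding subunits, E2f6, an E2F protein that lacks the activation domain of its relatives, had the largest Hey1-line difference among the representing probe sets. Its probe set 1448835_at read 9.02 in induced and 8.59 in uninduced Hey1 cells, a difference of 0.42 (1.34-fold). In the Hey2 line it read 8.81 in induced and 8.70 in uninduced cells, a difference of 0.12. The induced Hey1 array was the highest of the 4. A second E2f6 probe set, which stayed below 6.05 in every array, differed by 0.46 in the Hey1 line and by -0.14 in the Hey2 line. Both probe sets thus read higher in induced Hey1 cells, and they disagreed in sign in the Hey2 line.

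Mga, a scaffold with a T-box domain that pairs with Max, had the largest Hey2-line difference among the representing probe sets. Probe set 1434746_at read 10.97 in induced and 10.88 in uninduced Hey1 cells, a difference of 0.09. It read 10.83 in induced and 10.42 in uninduced Hey2 cells, a difference of 0.41 (1.33-fold). The uninduced Hey2 array stood lowest, and the other 3 arrays lay between 10.83 and 10.97. All 5 Mga probe sets read higher in the induced Hey2 array, by 0.04 to 0.41, while in the Hey1 line they ran from -0.19 to 0.18 with 2 above 0. Of the 5, 2 never reached 6.05. Set against uninduced Hey1 cells instead, the induced Hey2 array had a Mga difference of -0.056.

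Max, which binds E-boxes with Mga in this complex and with Myc in others, has a single probe set. It read 9.10 in induced and 9.05 in uninduced Hey1 cells, and 9.02 in induced and 9.17 in uninduced Hey2 cells. Its differences of 0.05 and -0.15 had opposite signs.

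Among the core and compaction subunits, Pcgf6, the RING finger protein that defines this variant complex, had the smallest range over the 4 arrays among the representing probe sets, 0.098. Its representing probe set read 11.34 in induced and 11.37 in uninduced Hey1 cells, and 11.27 in induced and 11.34 in uninduced Hey2 cells. The other Pcgf6 probe sets differed by -0.10 and -0.0040 in the Hey1 line and by 0.22 and 0.17 in the Hey2 line, where they opposed the sign of the first (-0.07). Rnf2, the catalytic RING subunit, read 11.48 in induced and 11.59 in uninduced Hey1 cells, and 11.49 in induced and 11.59 in uninduced Hey2 cells. A second bright Rnf2 probe set gave nearly the same differences, -0.09 and -0.12 beside -0.11 and -0.09. The dimmer probe sets of Rnf2 were less alike: 1448043_x_at, a name that Affymetrix gives to sets with probes that may match other transcripts, differed by -0.56 in the Hey1 line and by 0.12 in the Hey2 line, with 2 of its 4 values below 6.05.

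L3mbtl2, which binds nucleosomes through MBT domains and compacts chromatin, read 9.53 in induced and 9.67 in uninduced Hey1 cells, a difference of -0.14. In Hey2 cells it read 9.81 when induced and 9.996 when uninduced, a difference of -0.19. Both Hey2-line arrays stood above both Hey1-line arrays. Cbx3 (HP1 gamma), a reader of methylated H3K9, read 6.39 in induced and 6.65 in uninduced Hey1 cells, and 6.52 in induced and 6.65 in uninduced Hey2 cells, differences of -0.26 and -0.13. Its single-symbol probe set lies close to the median of all values, and 4 further probe sets are annotated to Cbx3 jointly with the pseudogene Cbx3-ps5 and were left out. All 4 of those read higher in the induced Hey2 array, by 0.09 to 0.20, and in the Hey1 line they ran from -0.07 to 0.26, so the direction for Cbx3 depends on the probe set.

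Among the H3K9 methyltransferases, Ehmt1 (GLP) and Ehmt2 (G9a), which work as a pair to add methyl groups to H3K9, differed by similar small amounts. Ehmt1 read 10.42 in induced and 10.60 in uninduced Hey1 cells, and 10.85 in induced and 11.01 in uninduced Hey2 cells, differences of -0.18 and -0.16. Ehmt2 read 10.41 in induced and 10.54 in uninduced Hey1 cells, and 10.67 in induced and 10.85 in uninduced Hey2 cells, differences of -0.14 and -0.17. For both genes the order of the arrays was the same: Hey1 induced lowest, then Hey1 uninduced, Hey2 induced and Hey2 uninduced. L3mbtl2 had this order as well. The second Ehmt2 probe set differed by -0.03 and -0.24.

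Setdb1, the enzyme brought to its targets by Trim28 and zinc finger proteins, differed in the Hey2 line more at its dim probe sets than at its bright one. The bright set read 10.13 in induced and 10.15 in uninduced Hey1 cells, and 10.27 in induced and 10.09 in uninduced Hey2 cells, a Hey2-line difference of 0.17. The dim sets differed by 0.40 and 0.64 in the Hey2 line and by -0.12 and -0.30 in the Hey1 line. All 3 sets of Setdb1 therefore agreed in sign within each line and opposed it between the lines, while the sizes depended on the probe set. The mean of the 3 gave 0.40 in the Hey2 line.

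**Figure D2:**
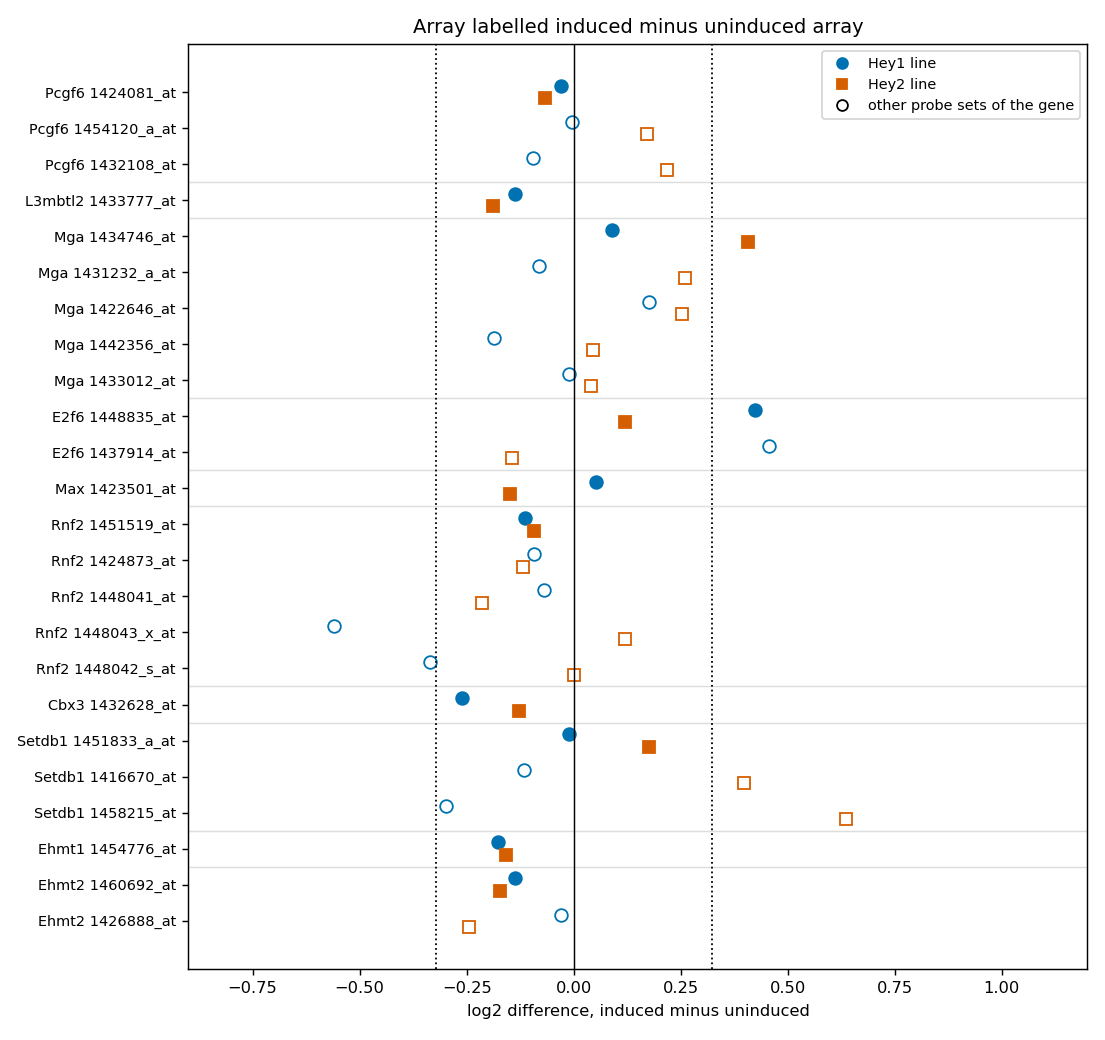
Log2 difference between the induced and the uninduced array (induced minus uninduced) of each of the 24 probe sets (blue circles, Hey1 line; orange squares, Hey2 line; filled, representing probe set). Dotted lines mark 0.32 on either side of 0, and each point is the difference of 2 single arrays with no error. Filled points pass the lines only for E2f6 in the Hey1 line (0.42) and Mga in the Hey2 line (0.41).

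Probe sets of a gene did not always agree. Of the 6 genes with several probe sets, 5 had a single sign over all their sets in the Hey1 line (Pcgf6, E2f6, Rnf2, Setdb1 and Ehmt2) and 3 in the Hey2 line (Mga, Setdb1 and Ehmt2). Over the 24 probe sets, 5 were above 0 and 19 below 0 in the Hey1 line, and 12 were above and 12 below in the Hey2 line. Mga and Rnf2 supply 5 sets each, and sets of 1 gene are not separate observations. With each gene counted once, at its representing probe set, 3 of the 10 lay above 0 in each line. The share of all genes compared that did so was 46.8% for Hey1 cells and 45.6% for Hey2 cells. At the representing probe sets, 2 genes were higher in both lines (Mga and E2f6), 6 were lower in both (Pcgf6, L3mbtl2, Rnf2, Cbx3, Ehmt1 and Ehmt2) and 2 had opposite signs (Max and Setdb1). With the mean of all probe sets, Mga had -0.0027 and 0.20 and E2f6 0.44 and -0.013, so neither was higher in both lines on that measure. Pcgf6 had -0.04 and 0.11, so it was not lower in both on that measure either. Cbx3 was lower in both at its dim single-symbol set, whereas the 4 sets shared with Cbx3-ps5 read higher in the induced Hey2 array. Among all genes compared, 28.1% were higher in both lines and 35.5% lower in both.

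A response shared by both lines was tested over the 12098 genes compared with limma and line as a block. None of the 10 genes passed an adjusted p of 0.05, none had an unadjusted p under 0.05, and 0 of all genes passed. The lowest adjusted p over all genes was 0.237, and 13.2% of them had an unadjusted p under 0.05. The mean difference was 0.27 ± 0.11 (moderated SE) for E2f6, with an adjusted p of 0.404 by limma. Each SE is moderated by limma, drawn towards a value shared by all genes, so it is not the spread of the gene's own 2 differences. For Mga it was 0.25 ± 0.11 (adjusted p = 0.429 by limma), and 0.099 with the mean of its 5 probe sets. Among the representing probe sets, the lowest mean differences were those of Cbx3, at -0.19 ± 0.09 (adjusted p = 0.426 by limma), and Ehmt1, at -0.17 ± 0.08 (adjusted p = 0.440 by limma). The fit has 1 residual degree of freedom per gene and takes the 2 inductions for repeats of each other. A p that misses the threshold in such a fit does not show that the levels were alike.

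Between the lines, Ehmt1, Ehmt2 and L3mbtl2 read higher and Mga lower in the Hey2 cells. The difference of Hey2 minus Hey1 cells was 0.43 between induced and 0.41 between uninduced arrays for Ehmt1 (1.34-fold and 1.33-fold). It was 0.27 and 0.30 for Ehmt2, and 0.28 and 0.33 for L3mbtl2. The other Ehmt2 probe set had 0.20 and 0.42. At the representing probe sets of these 3 genes the gap between the lines was wider than the gap between induced and uninduced cells of either line. For Mga the difference was -0.15 between induced and -0.46 between uninduced arrays, and all 5 of its probe sets were below 0 in both. The 3 probe sets of Pcgf6 were also below 0 in both, from -0.11 to -0.02 and from -0.33 to -0.03. At the representing probe sets and a difference of 0.32, 1 gene was higher and 0 lower between the induced arrays. Between the uninduced arrays 2 were higher (Ehmt1 and L3mbtl2) and 1 lower (Mga). Over the 24 probe sets, 2 were higher and 0 lower between induced arrays, and 4 higher and 7 lower between uninduced arrays. In the latter, sets of Setdb1 ran from -0.75 to 0.10 and those of Rnf2 from -0.55 to 0.15. Over all genes compared, 12.6% were higher and 11.0% lower between induced arrays, and 16.0% were higher and 12.9% lower between uninduced arrays. These shares count each gene once, at its representing probe set, so the counts over the 24 sets cannot be read against them. Each of these comparisons has 1 array a side and no test.

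**Figure D3:**
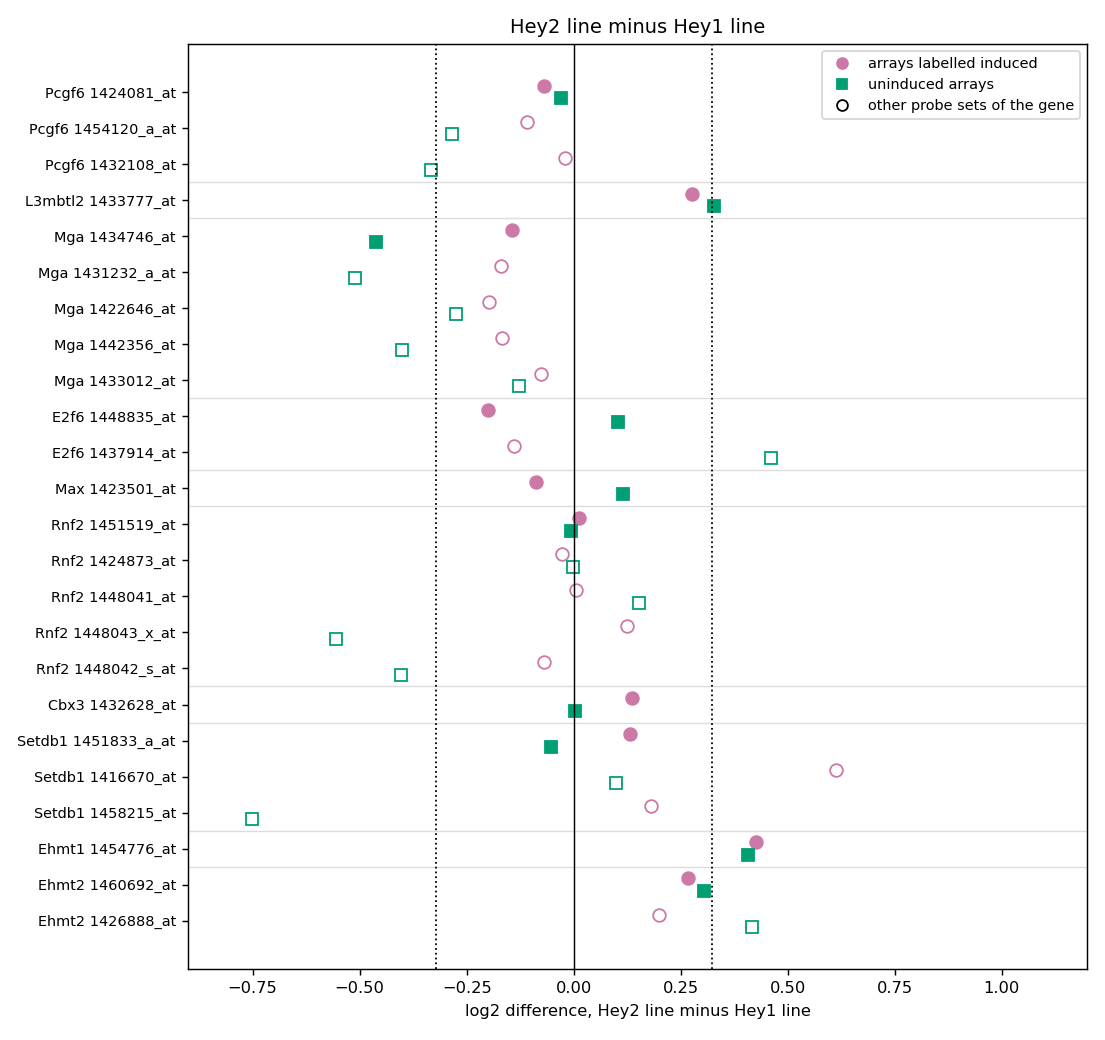
Log2 difference of the Hey2 line minus the Hey1 line for each of the 24 probe sets (pink circles, arrays labelled induced; green squares, uninduced arrays; filled, representing probe set). Dotted lines mark 0.32 on either side of 0, and no error can be given with 1 array per group. All Mga points lie left of 0, and all points of L3mbtl2, Ehmt1 and Ehmt2 lie right of it.

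Ehmt1 had the largest range over the 4 arrays among the representing probe sets, 0.59. Likeness to it was measured as the Euclidean distance between 4 log2 values, each centred on its gene's mean, over the 12098 genes. The closest named genes were Nr4a1 (0.012), Wsb2 (0.029) and Rnf44 (0.031). L3mbtl2 lay at 0.12 and Ehmt2 at 0.14, with 172 and 242 other genes closer to Ehmt1. These distances rest on 4 arrays.

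Other genes of the same machinery were described in the same way, as counts at 0.32 or more and medians. Of all genes compared, 6.16% were higher and 3.99% lower in the Hey1 line, and 9.54% and 11.7% in the Hey2 line. Of the other PRC1.6 subunits and partners, 7 of 8 listed were compared, and 1 was at least 0.32 higher, in the Hey2 line only. That gene was Yaf2, which stimulates the RING subunit (-0.03 in Hey1 cells and 0.34 in Hey2 cells). The list's medians were -0.03 and 0.04. Of the other H3K9 methyltransferases and their partners, 11 of 12 were compared, with medians of -0.03 in both lines. Atf7ip, which protects Setdb1 from degradation and keeps it in the nucleus, was the only one lower by at least 0.32 in both lines. It read 8.38 in induced and 8.75 in uninduced Hey1 cells, and 8.60 in induced and 9.10 in uninduced Hey2 cells, differences of -0.38 and -0.50. Its 3 probe sets ran from -0.38 to -0.18 and from -0.50 to -0.16, and its adjusted p in the common response was 0.290 by limma.

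Readers of methylated H3K9 had medians of -0.01 and -0.02 over 5 genes. Cbx1 (HP1 beta) was the only one to reach 0.32, being 0.38 higher in the Hey1 line, though its 5 probe sets ran from -0.04 to 0.64 there. The 8 H3K9 demethylases compared had medians of -0.02 and 0.09, with 1 lower in the Hey1 line and 2 higher in the Hey2 line, among them Kdm3b at -0.13 and 0.34. Of 15 genes of other PRC1 complexes, with medians of -0.13 and 0.03, 3 were lower in the Hey1 line, and 2 were higher and 1 lower in the Hey2 line. Bcor was the only gene past 2-fold among the lists of chromatin factors and DNA-binding partners given here. Bcor, the corepressor of the variant PRC1 that contains Pcgf1, read 7.16 in induced and 7.55 in uninduced Hey1 cells, and 6.65 in induced and 7.68 in uninduced Hey2 cells. Its 3 probe sets differed by -0.64 to -0.39 in the Hey1 line and by -1.03 to -0.997 in the Hey2 line. In the common response its adjusted p was 0.310 by limma.

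Of 10 other Max network genes, with medians of -0.12 and -0.04, 1 was lower in the Hey1 line, and 1 was higher and 1 lower in the Hey2 line. Mycn, a growth-promoting Max partner, differed by -0.18 and -0.36. Mxd4, a repressive Max partner, differed by -0.63 and -0.14, and Mxd3, of the same family, by 0.27 and 0.47. The probe sets of Mxd3 disagreed in sign in both lines, from -0.29 to 0.27 and from -0.27 to 0.47. The 8 other E2F family genes had medians of -0.09 and 0.08, and 0 of them reached 0.32 in either line. Of the 5 other MBT genes compared, with medians of -0.05 and 0.26, 1 was higher and 1 lower in the Hey1 line, and 1 was higher in the Hey2 line. Sfmbt2 differed by 0.66 and 0.26. No gene of these lists passed the test of the shared response.

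Most germline genes that these repressors are described as silencing read higher in the induced arrays. Their list was chosen with earlier results of these data known, and it includes genes already seen to be high, so its direction is not independent evidence. Of 33 listed genes, 30 had a single-symbol probe set, and 20 of these were compared. Of the 20, 15 were at least 0.32 higher in Hey1 cells and 15 in Hey2 cells, and 0 were lower by that much in either. Of all genes compared, 6.16% and 9.54% were higher by that much, and 3.99% and 11.7% lower. At 2-fold 5 and 9 of the 20 were higher, against 0.438% and 0.686% of all genes. Some of the 20 passed the filter through an induced array alone, which favours a higher reading. Over all 30, with no filter, 19 and 17 were at least 0.32 higher, with medians of 0.48 and 0.45. Over the 13 above 6.05 in every array, 8 and 9 were, with medians of 0.51 and 0.60. For these last sets of 30 and 13 genes no matching share of all genes was computed.

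Slc25a31, a mitochondrial nucleotide carrier of germ cells, read 8.56 in induced and 7.38 in uninduced Hey1 cells, and 7.34 in induced and 6.27 in uninduced Hey2 cells. Rnf17, a Tudor protein of germ cell granules, read 9.49 in induced and 8.69 in uninduced Hey1 cells, and 9.63 in induced and 8.44 in uninduced Hey2 cells, and its 4 probe sets were 0.67 to 1.05 and 0.92 to 1.32 higher. Both genes were higher in the induced array of each line. The mean difference of the Tudor gene Tdrkh was 1.10 ± 0.11 (moderated SE, adjusted p = 0.237 by limma). Meioc, needed for meiotic prophase, differed by 0.87 and 1.66, and both its uninduced values were above 6.05. Tex15, at 7.61 in induced and 6.19 in uninduced Hey1 cells, had 7.47 in induced and 5.87 in uninduced Hey2 cells. Taf7l read 6.47 in induced and 5.20 in uninduced Hey1 cells, and 6.31 in induced and 4.73 in uninduced Hey2 cells. Cpeb1 read 6.06 in induced and 5.004 in uninduced Hey1 cells, and 7.04 in induced and 4.94 in uninduced Hey2 cells. Taf7l and Cpeb1, like Tex11, passed the filter through induced arrays alone, and whether their uninduced values lie above background is not known. Mov10l1, a helicase of piRNA formation, was level (0.01 and -0.02). None of the 20 passed the common-response test. Of 17 preimplantation genes described as silenced by H3K9 methylation, 10 had a single-symbol probe set. With no filter their medians were 1.202 in Hey1 cells and 0.03 in Hey2 cells. Only 1 of them lay above 6.05 in every array, with 0.22 and 0.09. The 6 compared had medians of 2.38 and 0.12, but several passed the filter through the induced Hey1 array alone, which favours a higher reading there. Usp17la and Zfp352 were above 6.05 in both Hey1 arrays. Usp17la read 11.4 in induced and 7.51 in uninduced Hey1 cells, and Zfp352 read 7.43 and 6.09. In the Hey2 line they differed by 0.52 and 0.15.

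Markers of other cell types gave these values beside the germline genes. The 4 neural markers compared had medians of -0.05 and -0.29, with 1 above 0 for Hey1 cells and 0 for Hey2 cells. Sox1, a neural progenitor factor, read 7.35 in induced and 8.14 in uninduced Hey1 cells, and 5.98 in induced and 7.05 in uninduced Hey2 cells (adjusted p = 0.237 by limma). Its other probe set differed by only -0.0093 in the Hey1 line and by -0.36 in the Hey2 line. Pax6 differed by -0.06 and -0.13, Tubb3 by -0.04 and -0.05, and Nes by 0.17 and -0.45. The 2 primitive endoderm markers compared had medians of 0.09 and 0.05, the 3 mesoderm markers -0.08 and -0.18, and the 9 pluripotency markers 0.00 and -0.01. Their part in the germline values was not tested.

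**Figure D4:**
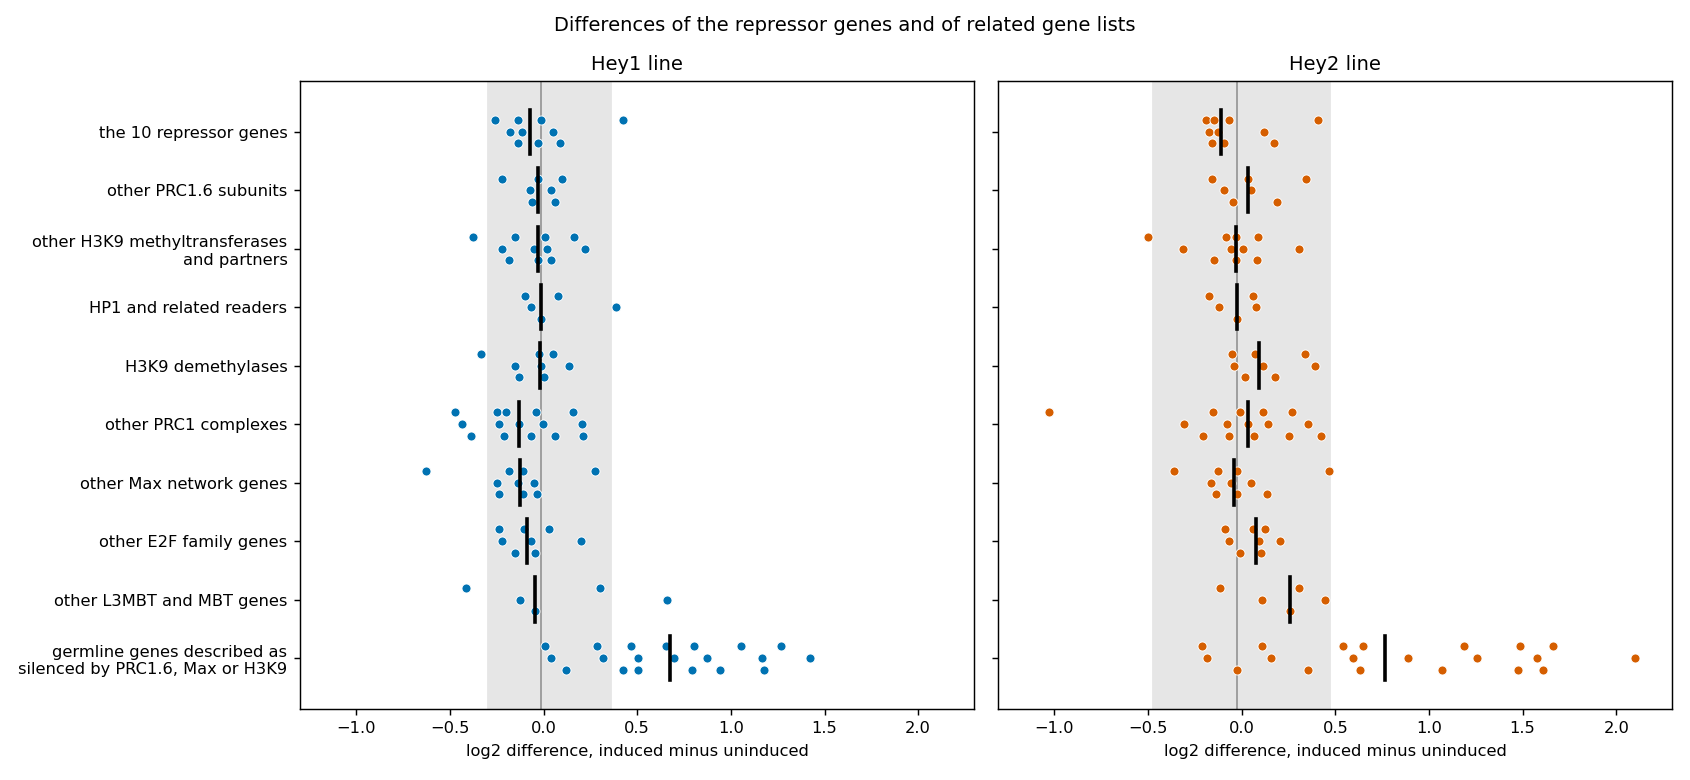
Log2 difference between the induced and the uninduced array (induced minus uninduced) of the 10 repressor genes and for genes of 9 related lists that were compared (left, Hey1 line; right, Hey2 line). Points are genes, black bars list medians, the grey band runs from the 5th to the 95th percentile of the 12098 genes and the grey line is their median. The repressor genes centre near 0 (medians -0.07 and -0.11) and the germline genes lie mostly right of the band (medians 0.67 and 0.77). The germline list was chosen with earlier results known, and some of its genes passed the filter through induced arrays alone. With no filter its medians were 0.48 and 0.45.

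The promoter windows of these genes were searched for the letters that the DNA-binding subunits recognise. The windows, 250 bases before to 50 bases after the annotated start, came from RefSeq on GRCm38.p6. The motifs were the E2F letters TTCCCGC (read as GCGGGAA on the other strand), the palindromic E-box CACGTG and the T-box letters AGGTGTGA (TCACACCT on the other strand). They do not overlap each other in the windows printed here. Over all 32851 promoter windows, 4.60% held the E2F letters, 7.15% the E-box, 1.28% the T-box letters and 0.457% both E2F letters and E-box. The 10 repressor genes had 12 windows. None of these held the E2F or T-box letters, and the E-box stood in those of Max and Ehmt2. Of the 33 windows of 28 germline genes, 30.3% held the E2F letters, 48.5% the E-box, 6.06% the T-box letters and 18.2% both E2F letters and E-box. A match describes letters and is not a shown binding site. Windows of 1 gene can overlap, and the list was drawn from genes described as targets of these factors, so these shares are given with no test.

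The 5 germline genes with both motifs are printed below, after the 2 repressor genes with an E-box, so that the letters can be set beside the values. Each runs 5' to 3' on the gene's strand from 250 bases before to 30 bases after the start, with the E2F and E-box letters in capitals. Max lies at chr12:76962219-76962498 (minus strand), Ehmt2 at chr17:34898224-34898503 (plus), Slc25a31 at chr3:40708621-40708900 (plus), Ddx4 at chr13:112652281-112652560 (minus), Sycp3 at chr10:88459337-88459616 (plus), Hormad1 at chr3:95559427-95559706 (plus) and Stag3 at chr5:138280259-138280538 (plus), all on GRCm38.p6.
Max: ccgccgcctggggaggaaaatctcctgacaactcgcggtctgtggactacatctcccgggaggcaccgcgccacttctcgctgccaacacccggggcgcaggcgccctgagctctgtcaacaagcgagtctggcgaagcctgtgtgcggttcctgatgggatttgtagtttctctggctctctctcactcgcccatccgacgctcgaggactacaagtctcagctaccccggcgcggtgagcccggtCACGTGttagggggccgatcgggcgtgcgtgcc
Ehmt2: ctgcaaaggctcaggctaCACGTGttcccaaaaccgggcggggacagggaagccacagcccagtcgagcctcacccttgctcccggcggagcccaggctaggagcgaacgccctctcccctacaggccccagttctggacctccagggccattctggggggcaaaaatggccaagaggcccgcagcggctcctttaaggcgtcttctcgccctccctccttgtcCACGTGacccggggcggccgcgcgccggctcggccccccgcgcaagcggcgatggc
Slc25a31: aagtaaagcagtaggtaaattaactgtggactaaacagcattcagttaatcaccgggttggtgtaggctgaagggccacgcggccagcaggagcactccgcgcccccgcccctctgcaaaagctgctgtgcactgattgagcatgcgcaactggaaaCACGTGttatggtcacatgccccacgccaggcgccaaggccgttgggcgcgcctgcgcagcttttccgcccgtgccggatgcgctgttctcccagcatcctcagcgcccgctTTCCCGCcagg
Ddx4: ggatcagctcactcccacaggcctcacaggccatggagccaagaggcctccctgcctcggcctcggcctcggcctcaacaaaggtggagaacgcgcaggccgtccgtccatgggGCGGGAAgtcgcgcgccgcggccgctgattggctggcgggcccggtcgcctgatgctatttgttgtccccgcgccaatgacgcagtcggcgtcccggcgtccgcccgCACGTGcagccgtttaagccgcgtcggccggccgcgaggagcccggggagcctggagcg
Sycp3: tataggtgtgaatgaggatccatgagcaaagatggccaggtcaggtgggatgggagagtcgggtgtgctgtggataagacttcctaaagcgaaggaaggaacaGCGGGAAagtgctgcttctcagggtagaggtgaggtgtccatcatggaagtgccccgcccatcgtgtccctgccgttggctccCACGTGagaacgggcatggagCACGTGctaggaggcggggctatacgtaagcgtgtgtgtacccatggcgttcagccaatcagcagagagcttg
Hormad1: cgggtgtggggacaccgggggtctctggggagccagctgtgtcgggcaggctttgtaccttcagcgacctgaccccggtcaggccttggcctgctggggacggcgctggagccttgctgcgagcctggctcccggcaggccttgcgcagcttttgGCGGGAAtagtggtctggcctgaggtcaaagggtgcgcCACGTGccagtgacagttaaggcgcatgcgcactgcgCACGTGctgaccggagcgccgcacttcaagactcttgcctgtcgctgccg
Stag3: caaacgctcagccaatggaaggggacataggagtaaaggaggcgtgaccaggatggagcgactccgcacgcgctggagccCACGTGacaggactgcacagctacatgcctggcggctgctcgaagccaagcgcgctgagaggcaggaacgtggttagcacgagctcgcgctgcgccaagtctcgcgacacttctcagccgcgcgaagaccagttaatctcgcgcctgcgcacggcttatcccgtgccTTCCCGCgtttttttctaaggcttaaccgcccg

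Max carries a single E-box across its start, and its transcript differed by 0.05 and -0.15. Ehmt2 carries an E-box 232 and another 26 bases before its start, and its transcript differed by -0.14 and -0.17. Among the germline genes, the E2F letters of Slc25a31 begin at base 20 after the start and its E-box 93 bases before it, and its differences were 1.18 and 1.07. Ddx4, the germ cell RNA helicase, has the E2F letters 136 and the E-box 29 bases before the start. It read 8.86 in induced and 8.39 in uninduced Hey1 cells, and 8.96 in induced and 8.32 in uninduced Hey2 cells. Sycp3, of the meiotic chromosome axis, has the E2F letters 147 and E-boxes 64 and 43 bases before the start, and differed by 1.17 and 0.54. Hormad1, another axis protein, and the cohesin gene Stag3 carry the same pair of motifs and differed by 0.04 and 0.60 and by 0.12 and 0.63. The 5 genes with both motifs thus ran from 0.04 to 1.18 in the Hey1 line and from 0.54 to 1.07 in the Hey2 line. Of the germline genes with a promoter and a probe set, the 5 with both motifs had medians of 0.46 and 0.63. The 21 without had 0.43 and 0.20. All 5 with both motifs reached the level filter, while 9 of the 21 without lay below it, so these medians do not compare like with like. Among those without, Cpeb1 (2.10) and Meioc (1.66) differed more in the Hey2 line than any of the 5, and Mov10l1 was level (-0.02).

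**Figure D5:**
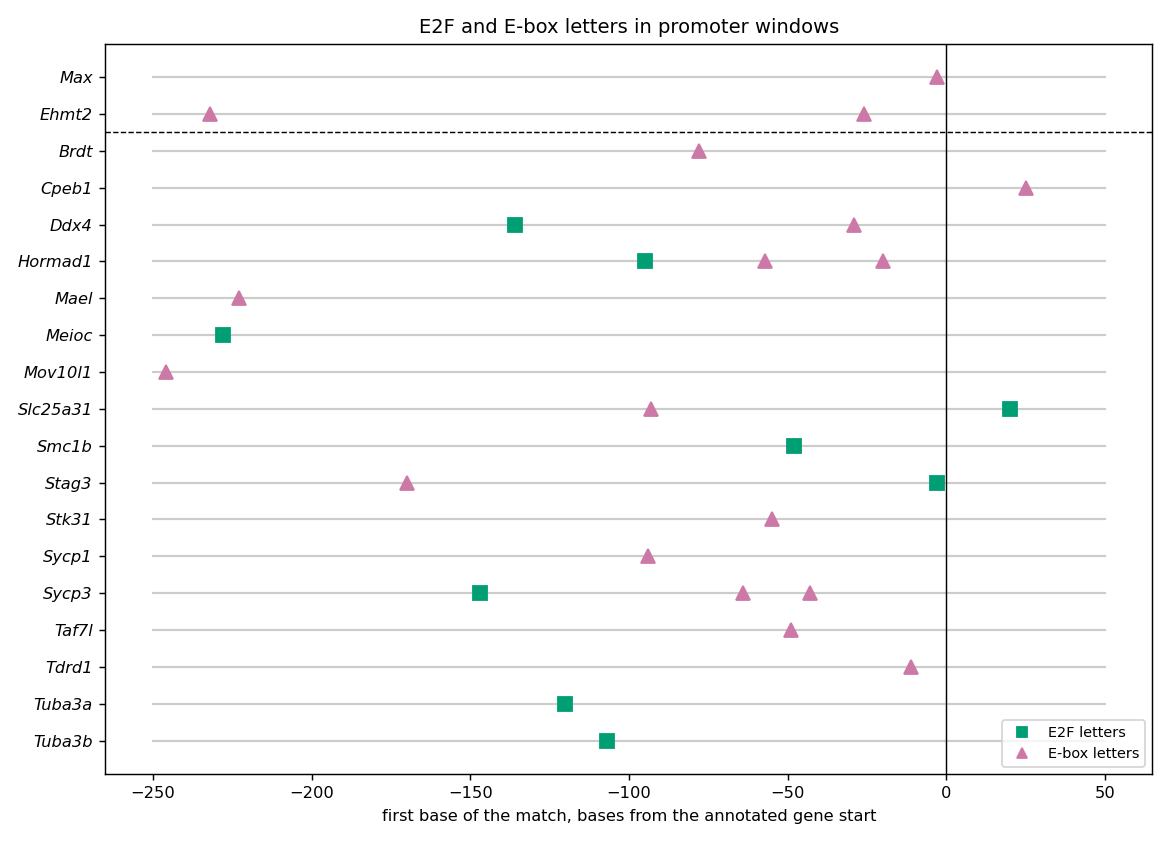
Position of the E2F letters (green squares) and E-box letters (pink triangles) in the first listed promoter window of the 2 repressor genes (above the dashed line) and 17 germline genes that hold a match. The horizontal axis gives the first base of each match in bases from the annotated start, with negative values before it, and grey lines show the window searched. Squares and triangles occur together in Ddx4, Hormad1, Slc25a31, Stag3 and Sycp3, and no repressor gene has a square.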

How the data were processed

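The authors deposited log2 probe set values, 1 column per array, made with RMA per the submitters' processing notes. RMA corrects background, normalises arrays by quantiles and summarises probes. Version, chip description file and build were not stated. The values themselves show the log2 scale. Sorted, the 4 columns match within 0.0024, so a shift of all genes together cannot be seen.

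Groups were taken from sample titles. Each gene was represented by its single-symbol probe set with the highest mean, and 12098 of 18194 genes with a value reaching 6.05, the median of all values, in at least 1 array were compared. Differences within a line were subtracted, and the shared response was tested in R 4.3.3 by lmFit and eBayes of limma 3.58.1 with a line block and Benjamini-Hochberg adjustment, after a run on simulated data. The spread behind a p-value comes from the difference between the responses of the 2 lines, moderated over all genes. It measures no repeat of a line, and nothing says that arrays came from separate cultures. Counts used 0.32 (log2) and 2-fold. All 10 genes were named with their probe sets, along with the 4 genes per list with the largest mean difference and those at 2-fold (up to 8) as candidates, 3 genes most like Ehmt1 and, chosen after their values were seen, Dcn, Thy1, Col1a1, Col1a2, Col3a1, Sox1, Mov10l1, Ddx4, Sycp3, Hormad1 and Stag3. The members and lists were chosen with earlier results of these data known. All 24 member probe sets matched the RefSeq gene table by gene identifier and symbol. Python 3.11.15 with numpy 2.4.6, pandas 2.3.3 and matplotlib 3.10.9 was used otherwise. Alternatives covered the level filter, normalisation, an offset, probe set averaging, the uninduced array used, the fit and the fold.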

Additional observations from a re-analysis of the deposited data

Results flagged for a closer look

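Opposite signs of the difference in the 2 lines were looked for in the 10 repressor genes and the named genes of the related lists, 54 in all. It held for 10, among them 2 of the 10 repressor genes, while 36.1% of all genes compared had opposite signs. For the 10 repressor genes this is no larger a share than that background. The list genes were named mostly for a large mean of the 2 differences, which disfavours opposite signs. Their count therefore cannot be set against that background. The difference between the lines was not tested for any of them. Among the repressor genes, the Hey2-line difference minus the Hey1-line difference was -0.20 for Max and 0.19 for Setdb1. Among the others it was 0.37 for Yaf2, -0.33 for Atf7ip2, -0.50 for Cbx1, 0.14 for Kdm1a, 0.17 for Kdm3a, 0.47 for Kdm3b, 0.35 for L3mbtl3 and -3.43 for Ubtfl1. Ubtfl1 reached 6.05 only in the Hey1 induced array.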

How the results depend on the processing

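The fit of the shared response pairs induced and uninduced arrays by line, as no replicate numbers exist. Without that block the lowest adjusted p over all genes was 1.000. Of 95 summary values recomputed, 87 stayed within 1.5 times the count or within the spread across genes. Some could not move, since the 4 arrays share a median and all 10 genes pass the main filter. That spread (0.22 in the Hey2 line) is wider than the medians of the 10 genes, so a median can change sign and still count as staying. The Hey2-line median, -0.11, became 0.04 against the uninduced array of the other line. With a threshold of 1.5-fold, the number of repressor genes higher became 0 in the Hey1 line, 0 in the Hey2 line, 0 between induced and 0 between uninduced arrays, and the number lower between uninduced arrays became 0. With an offset of 32, 1 gene was higher between uninduced arrays. Against the uninduced array of the other line, 3 genes were lower by 0.32 or more in the Hey1 line (L3mbtl2, Ehmt1 and Ehmt2), and 0 were higher in the Hey2 line, where Mga turned to -0.056. These arrays also differ by line. Averaged over its probe sets, Pcgf6 turned to 0.032 in the common response and to 0.11 in the Hey2 line. On the same measure Mga turned to -0.0027 in the Hey1 line and E2f6 to -0.013 in the Hey2 line. Over all genes, limma with a level-dependent, robust prior called 241 higher and 192 lower and with the 75th-percentile filter 3 and 1, but 0 of the 10 repressor genes passed in any of the 9 alternative fits. At an unadjusted p under 0.05, 4 of the 10 passed with that prior and 1 of 9 with that filter, under which Cbx3 was not compared. The share of all genes under that p is given only for the main fit (13.2%, by limma). These member counts therefore have no background to be read against. The array values carry no detection calls, so low probe sets have no measured background.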

Other observations

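The 4 probe sets annotated jointly to Cbx3 and the pseudogene Cbx3-ps5 read far brighter than the single-symbol Cbx3 set in 3 cases, and transcripts of gene and pseudogene cannot be told apart in them. The brightest read 13.36 in induced and 13.31 in uninduced Hey1 cells, and 13.25 in induced and 13.07 in uninduced Hey2 cells. Over the 4 sets the Hey1-line difference ran from -0.07 to 0.26 and the Hey2-line difference from 0.09 to 0.20, where the single-symbol set had -0.26 and -0.13. All 4 shared sets thus read higher in the induced Hey2 array, opposite to the single-symbol set. Between uninduced arrays they were lower in the Hey2 line by amounts of -0.32 to -0.24, where the single-symbol set had 0.0018.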
